A study of Mus musculus with 24 samples.

Results

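The semaphorins, ephrins, Slits and netrins and their receptors are the large protein families by which growing axons read their surroundings, and the H3K4me3 signal at their promoters was followed here in mouse cerebral cortex. A region belonged to these families when it contained the transcription start site (TSS, the 5′ end of any annotated transcript in GENCODE M1 on mm9) of a protein-coding gene whose symbol begins with Sema, Plxn, Epha, Ephb, Efna, Efnb, Ntn or Unc5, or is Slit1 to Slit3, Robo1 to Robo3, Nrp1, Nrp2 or Dcc. Of the 17993 regions with deposited counts, 12985 held the TSS of a protein-coding gene, and 74 of these met the rule. They covered 69 of the 72 annotated genes of the 12 families, since Sema4b, Sema6d, Plxnb2, Slit3 and Ntng1 had 2 regions each, while Sema3b, Sema3g and Unc5cl held no region and were not analysed here. Unc50 met the rule through its symbol, although it is not a netrin receptor, and leaving it out changed none of the counts of called regions below. In all, 11 of the 74 regions also contained the TSS of another gene, namely the regions of Ntn3 (with Tbc1d24), Efnb2 (with 4921522P10Rik) and Unc50 (with 6330578E17Rik) and, with genes of noncoding transcripts, those of Sema4c, Sema5a, Nrp1, Epha6, Epha7, Efna4, Ntng2 and Unc5c, and their counts cannot be assigned to a single gene.

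The study asked whether tandem chromatin immunoprecipitation (tChIP-Seq), in which chromatin carrying a FLAG-tagged histone H2B is selected before the H3K4me3 precipitation, reads out the mark in chosen cells of a mixed tissue. Cortex of C57BL/6 mice was used, and each lysate was prepared from 2 animals. In the Rosa H2B-FLAG line (labelled Rosa CAG-H2B-FLAG) a Vasa-Cre driver had removed the stop cassette in the germline, so that the tagged histone is expressed ubiquitously. In the Camk2a H2B-FLAG line (labelled Rosa26 CAG-floxed-pA-H2B-FLAG/ CaMKCreERT2) the cassette is removed by tamoxifen-activated Cre under the Camk2a promoter, which is active in excitatory pyramidal neurons. Males of this line carried 1 copy of each allele and received 1 mg of tamoxifen per day for 5 days at 8 weeks of age, and tissue was collected about a month later. Age, sex and any tamoxifen treatment of the Rosa H2B-FLAG animals used for sequencing were not given in the sources used here, so line, age, sex and tamoxifen cannot be told apart. From each line 3 libraries were made by single ChIP-Seq (anti-H3K4me3 antibody alone) and 3 by tChIP-Seq, which gave 4 groups and 12 libraries. Single ChIP-Seq reads all cells of the tissue in both lines, whereas tChIP-Seq selects chromatin of the tagged cells. The paper places the share of tagged cells in the brain at about the limit found with mixed cell lysates. Past that limit, chromatin of untagged cells was recovered in comparable amounts. How much such chromatin the tChIP-Seq libraries held was not tested here.

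Trimethylation of lysine 4 on histone H3 marks the start sites of active and of poised genes, and it is often broad where a gene is strongly used in a cell type. Semaphorins signal through plexins, with neuropilins as co-receptors for the secreted class, ephrins through Eph receptor tyrosine kinases, Slits through Robo receptors, and netrins through Dcc, which mainly attracts, and Unc5 receptors, which repel. In the adult cortex many of these proteins are kept at synapses, and several, such as ephrin-B2 with Ephb4 or the netrin receptor Unc5b, also act in blood vessels.

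To show the promoters at both ends of the comparison between the lines, the 150 bases before the most upstream annotated start inside the region are given for the 2 called regions with the highest and the 2 with the lowest log2 fold change in tChIP-Seq. They were read from the mm9 genome and are written 5′ to 3′ on the strand of the gene, with CG dinucleotides in capitals. The windows are at chr19:41818156-41818305 on the minus strand for Slit1, at chr16:60605358-60605507 on the minus strand for Epha6, at chrX:71002279-71002428 on the plus strand for Plxnb3 and at chr5:137791187-137791336 on the plus strand for Ephb4. None of the 4 windows overlapped an annotated exon, and that of Epha6 lies in an intron of the antisense transcript Gm9017.
Slit1: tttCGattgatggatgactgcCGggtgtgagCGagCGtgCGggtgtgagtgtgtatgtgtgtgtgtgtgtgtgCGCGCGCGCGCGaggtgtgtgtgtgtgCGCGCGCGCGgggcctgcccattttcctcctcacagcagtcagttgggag
Epha6: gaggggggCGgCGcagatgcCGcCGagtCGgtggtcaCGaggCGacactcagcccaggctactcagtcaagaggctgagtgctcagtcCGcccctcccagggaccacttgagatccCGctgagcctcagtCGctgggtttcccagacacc
Plxnb3: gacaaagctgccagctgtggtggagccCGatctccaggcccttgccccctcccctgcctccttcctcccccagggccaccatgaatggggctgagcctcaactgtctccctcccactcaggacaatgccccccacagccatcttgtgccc
Ephb4: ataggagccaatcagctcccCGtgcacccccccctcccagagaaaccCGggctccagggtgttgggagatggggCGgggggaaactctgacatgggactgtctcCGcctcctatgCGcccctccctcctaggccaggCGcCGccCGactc
The Slit1 window held 16 CG dinucleotides, that of Epha6 10, that of Ephb4 8 and that of Plxnb3 1. Among 14263 promoter windows of protein-coding genes the median was 11, and among the 74 guidance regions it was 10, with the same median of 10 in the regions called higher, called lower and not called between the lines. The letters CG occurred at least once in 99.0% of all windows. The CG letters are a description of these windows and not binding sites.

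The single ChIP-Seq libraries held 4063200 to 8644574 counts over all regions, and the tChIP-Seq libraries 1457261 to 3049130, with the lowest totals in the Rosa line. The guidance regions took 0.650% to 0.659% of the counts in single ChIP-Seq, 0.666% to 0.675% in Rosa H2B-FLAG tChIP-Seq and 0.781% to 0.798% in Camk2a H2B-FLAG tChIP-Seq. Levels below are CPM, counts scaled to library size, with TMM normalisation over the 12 libraries, fold changes are log2 values from the quasi-likelihood test of edgeR with the SE after ±, and regions were called at an adjusted p under 0.01 (Benjamini-Hochberg over all 17993 regions). The p-values measure the spread between these libraries, each made from a lysate of 2 animals. Whether the libraries of a group came from different animals was not given in the sources used here. The p-values therefore need not measure the spread between animals. Since tissue was pooled, a larger share of cells that carry the mark and more mark per cell cannot be told apart. Between the lines in tChIP-Seq, the 7 measured regions of 8 excitatory neuron markers, Camk2a and Slc17a7 among them, were all higher (median log2 fold change 1.35), 6 of 8 regions of inhibitory neuron markers were lower, as were 7 of 9 of oligodendrocyte and 6 of 8 of astrocyte markers (1 region of each was higher), 2 of 3 of mural cell markers and all 8 of endothelial markers (median -2.17). Summed endothelial marker signal in tChIP-Seq was 343 to 352 CPM in the Rosa line but 101 to 108 CPM in the Camk2a line, with 252 to 273 CPM over the 6 single ChIP-Seq libraries, and none of the 8 microglia genes listed (Csf1r, Cx3cr1, Aif1, Tmem119, P2ry12, Itgam, Trem2 and C1qa) had a region, while other microglial genes were not examined. What these shifts contribute to the values of single guidance genes was not tested.

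In tChIP-Seq, the guidance families as a whole were higher in the Camk2a H2B-FLAG line. The test called 53 of the 74 (71.6%), 38 of them higher (51.4%) and 15 lower (20.3%). Of all regions, 31.6% were called, 17.0% higher and 14.6% lower. The median of the members was 0.30 where the median of all regions was -0.00. The 3 Camk2a H2B-FLAG libraries all lay above the 3 Rosa H2B-FLAG libraries at 44 regions and all below at 16. These were 59.5% and 21.6% of the members, against 24.8% and 23.6% of all regions. In single ChIP-Seq the Camk2a libraries were separate from the Rosa libraries in this way at 12 members above and 10 below. That was 16.2% and 13.5% of the members, near the 12.3% and 12.7% of all regions. In tChIP-Seq both sides of the signalling pairs were represented. Of 39 ligand regions 18 were higher and 8 lower, and of 35 receptor regions 20 were higher and 7 lower. All 12 families except the neuropilins held at least 1 region that passed the test. The families with the largest share of higher calls were Dcc (its only region), the EphA receptors (7 of 9), the Slits (3 of 4), Robo (2 of 3), EphB (3 of 5) and Unc5 (3 of 5), and Sema, plexin, EphA, EphB, ephrin-A, netrin and Unc5 regions were found in both directions. Close relatives were called in opposite directions, such as Epha6 and Epha2 or Unc5a and Unc5b.

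**Figure D1:**
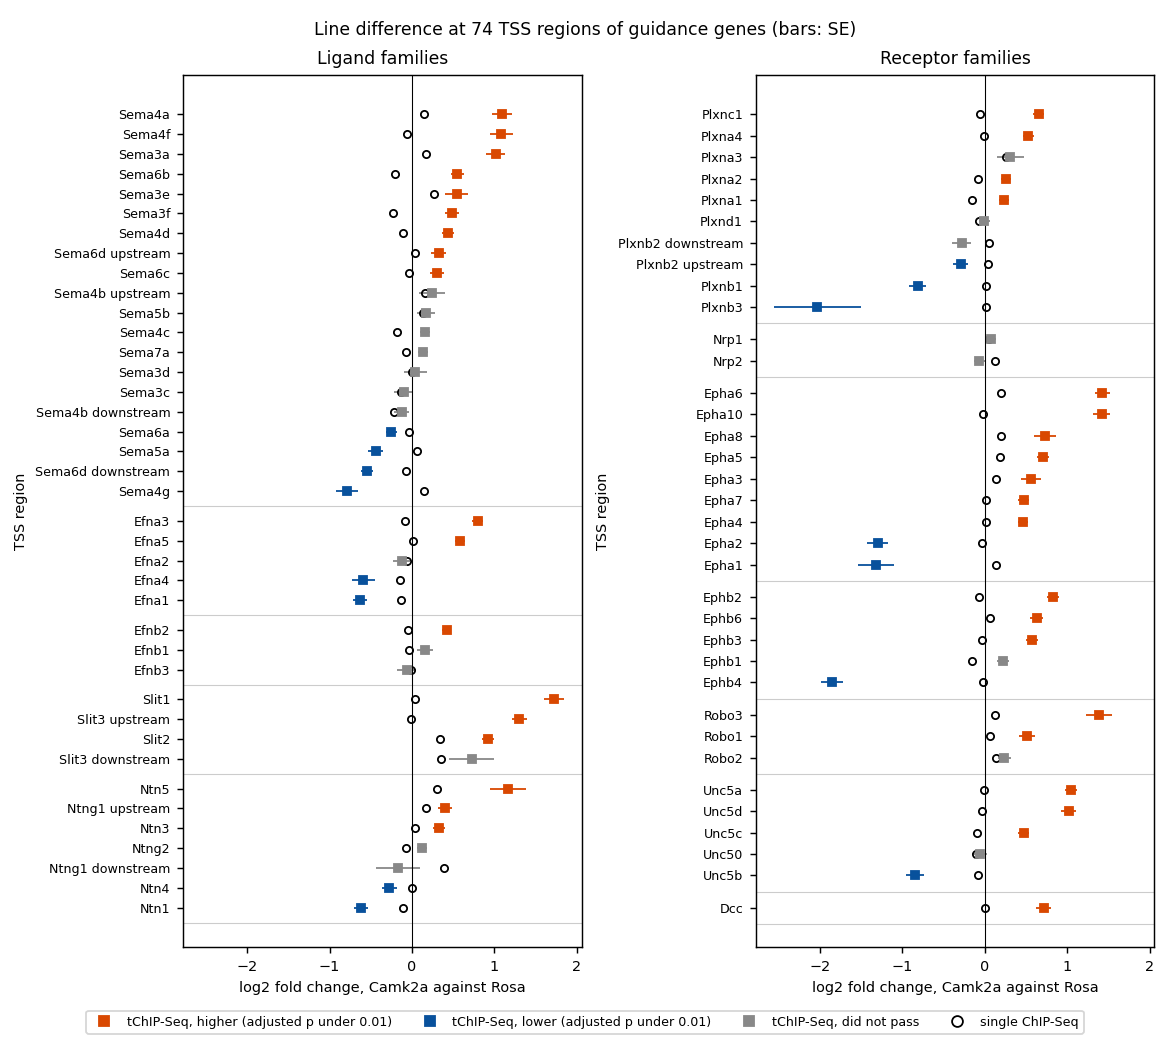
Log2 fold change of Camk2a H2B-FLAG against Rosa H2B-FLAG at each of the 74 regions, ligand families at the left and receptor families at the right, with tChIP-Seq as squares (bars are SE, orange for called higher, blue for called lower, grey for not called) and single ChIP-Seq as open circles. In tChIP-Seq 38 regions were called higher and 15 lower, while 65 of the 74 single ChIP-Seq values lie within 0.2 of 0.

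Levels between families were compared per kb of region. In single ChIP-Seq of the Rosa H2B-FLAG line the summed signal per kb was lowest for the Slits (20.1 ± 0.542 CPM per kb, mean ± SD, n = 3) and Robo (20.5 ± 0.435) and highest for the ephrin-A regions (30.1 ± 0.888) and plexins (29.6 ± 0.139), and the libraries of the Slits overlapped those of Robo as did those of ephrin-A and plexin. In Rosa H2B-FLAG tChIP-Seq the Slits were again lowest, at 16.6 ± 1.53 CPM per kb, below every library of the next families, Dcc (21.0 ± 0.659) and EphA (21.3 ± 0.131). In Camk2a H2B-FLAG tChIP-Seq the Slits had the highest mean, at 36.9 ± 2.09 CPM per kb, with libraries that overlapped those of EphB (35.4 ± 0.659), Dcc (34.2 ± 2.13) and ephrin-A (35.2 ± 0.428). The neuropilins were lowest there (27.0 ± 0.595 CPM per kb), just below ephrin-B (28.7 ± 1.58). The Slit family thus had the lowest mean of the 12 families in Rosa H2B-FLAG tChIP-Seq and the highest in Camk2a H2B-FLAG tChIP-Seq, in the latter without separation from its neighbours.

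Among the ligands, the Slits are secreted repellents, and their regions stood out. Slit1 had the highest log2 fold change of all guidance regions, with 88.9, 97.8 and 86.9 CPM in the 3 Camk2a H2B-FLAG tChIP-Seq libraries and 25.6, 25.0 and 33.5 CPM in the 3 Rosa H2B-FLAG ones. In single ChIP-Seq the Slit1 region had 55.3, 54.4 and 51.9 CPM in the Rosa line and 53.2, 54.9 and 58.6 CPM in the Camk2a line. The tChIP-Seq groups were far apart, a 3.29-fold difference (1.72 ± 0.12, adjusted p = 3.40e-22), while the single ChIP-Seq groups overlapped and lay between them. Slit2 had 187, 202 and 179 CPM against 95.5, 96.6 and 111 CPM in tChIP-Seq (0.92 ± 0.07, adjusted p = 3.07e-19). Its single ChIP-Seq libraries had 103, 109.8 and 118 CPM in the Camk2a line and 89.4, 82.0 and 92.4 CPM in the Rosa line. Slit2 was higher in the Camk2a line with both methods and without overlap, and its single ChIP-Seq difference of 0.34 (adjusted p = 1.67e-06) was the largest called there. At Slit3 the upstream region had 116, 127 and 118 CPM against 44.4, 50.1 and 53.8 CPM in tChIP-Seq (1.30 ± 0.09, adjusted p = 5.92e-21), and 81.2, 78.0 and 72.8 against 77.3, 77.8 and 78.5 CPM in single ChIP-Seq. The groups of that region did not overlap in tChIP-Seq and overlapped in single ChIP-Seq, as for Slit1. The downstream Slit3 region was low in every library, between 4.07 and 14.4 CPM, and its tChIP-Seq difference of 0.72 did not pass (adjusted p = 0.0269).

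**Figure D2:**
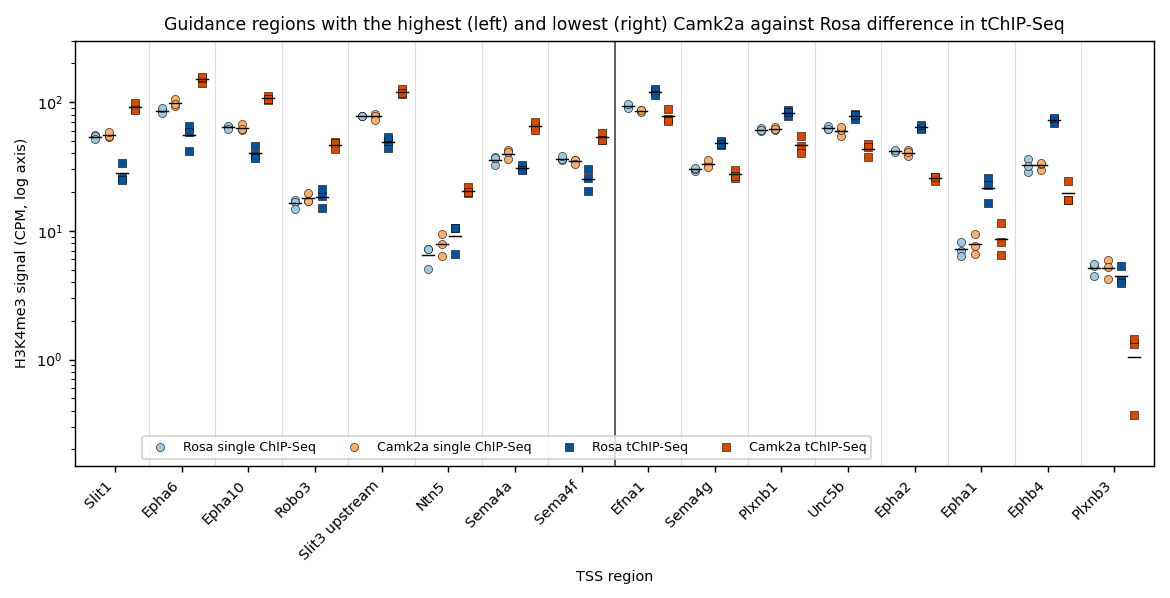
CPM on a log axis in each of the 12 libraries (circles for single ChIP-Seq, squares for tChIP-Seq, light and dark blue for Rosa H2B-FLAG, light and dark orange for Camk2a H2B-FLAG, black lines for means of 3) at the 8 called regions with the highest and the 8 with the lowest log2 fold change between the lines in tChIP-Seq. Slit1 separates at 86.9 CPM or more against 33.5 CPM or less, and Ephb4 at 24.6 CPM or less against 68.6 CPM or more, while the single ChIP-Seq points of the lines lie close together.

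Semaphorins formed the largest family, with 9 of 20 regions higher, 4 lower and 7 not called. Sema4a, a transmembrane class 4 semaphorin with known roles in immune cells, had 65.6, 60.3 and 69.6 CPM in Camk2a H2B-FLAG tChIP-Seq against 30.3, 32.2 and 29.5 CPM in Rosa H2B-FLAG (1.09 ± 0.12, adjusted p = 2.07e-12). In single ChIP-Seq it had 36.2, 42.5 and 40.6 against 32.7, 37.6 and 36.8 CPM. The Sema4a libraries were well apart in tChIP-Seq and overlapped in single ChIP-Seq. Sema4f, another transmembrane member, had 58.1, 50.5 and 50.8 against 25.6, 20.3 and 30.2 CPM in tChIP-Seq (1.08 ± 0.14, adjusted p = 1.73e-10) and 35.4, 35.8 and 33.1 against 35.2, 36.3 and 38.0 CPM in single ChIP-Seq, again apart in the first and overlapping in the second. Sema3a, the secreted repellent of cortical axons, rose as well (1.02 ± 0.12), as did Sema6b (0.55 ± 0.08), Sema3e (0.54 ± 0.14), which signals through plexin D1, Sema3f (0.49 ± 0.08), a ligand of neuropilin 2, Sema4d (0.43 ± 0.07), the ligand of plexin B1, and Sema6c (0.30 ± 0.08). Sema4g went the other way, with 25.9, 30.0 and 26.9 against 46.4, 50.1 and 47.2 CPM in tChIP-Seq (-0.79 ± 0.13, adjusted p = 4.67e-07). Its single ChIP-Seq levels were 33.0, 35.8 and 31.2 CPM in the Camk2a line and 29.4, 30.3 and 30.6 CPM in the Rosa line. The Sema4g groups did not overlap with either method, but the order of the lines was opposite, and the single ChIP-Seq difference of 0.15 did not pass (adjusted p = 0.372). Sema5a, which holds thrombospondin repeats, fell by 0.44 ± 0.09 and Sema6a by 0.25 ± 0.06.

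Sema7a and Sema4c differed little between the lines in tChIP-Seq. Sema7a, attached to the membrane by a lipid anchor, had 183, 193 and 179 CPM in tChIP-Seq of the Camk2a line, against 167, 171 and 172 CPM in that of the Rosa line (0.13 ± 0.06, adjusted p = 0.0815). In single ChIP-Seq it had 227, 218 and 216 CPM in the Camk2a line and 235, 225 and 236 CPM in the Rosa line, above all 6 tChIP-Seq libraries. The Camk2a libraries were the higher ones in tChIP-Seq without overlap, but the difference was small and did not pass. Sema4c had 173, 170.3 and 166 against 152, 157 and 152 CPM in tChIP-Seq (0.16 ± 0.06, adjusted p = 0.044). It had 169.6, 161 and 157 against 179, 188 and 185 CPM in single ChIP-Seq (-0.18 ± 0.04, adjusted p = 0.00245), the only guidance region called lower there, and one that also holds the start of the noncoding gene D430040D24Rik. The lines were thus in opposite order with the 2 methods, and neither pair of groups overlapped. The single ChIP-Seq call of Sema4c was lost with DESeq2 (adjusted p = 0.0561), with library totals, without the 40% of regions with the lowest counts, and without replicate 2 or 3 of either line.

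Ephrins are the membrane-bound ligands of Eph receptors, and the ephrin-A genes split in their direction. Efna5, a repellent for many axons, had 279.8, 259.8 and 262 CPM in Camk2a H2B-FLAG tChIP-Seq against 170.1, 187 and 184 CPM in Rosa H2B-FLAG (0.58 ± 0.06, adjusted p = 1.12e-14). Its single ChIP-Seq libraries had 239, 197 and 237 against 210.0, 229 and 223 CPM. All 3 Camk2a tChIP-Seq libraries exceeded every other library of Efna5, and the single ChIP-Seq groups overlapped. Efna3 also rose (0.80 ± 0.07, adjusted p = 1.22e-17), while Efna1, known from endothelial cells, had 73.5, 71.1 and 88.4 against 121, 127 and 114 CPM in tChIP-Seq (-0.63 ± 0.08, adjusted p = 7.56e-10). In single ChIP-Seq Efna1 had 86.2, 83.5 and 86.7 against 93.1, 90.8 and 96.5 CPM. The Camk2a libraries of Efna1 were below the Rosa libraries with both methods, but the single ChIP-Seq difference did not pass (-0.13 ± 0.06, adjusted p = 0.151). Efna4 fell by 0.59 ± 0.14, and Efna2 was not called (-0.13 ± 0.10, adjusted p = 0.337). Efna1, Efna3 and Efna4 lie next to each other on chromosome 3, with 37.2 kb between the regions of Efna1 and Efna3 and 13.9 kb between those of Efna3 and Efna4. The middle gene thus rose while both neighbours fell, a pattern picked out after the values were seen. The ephrin-B genes varied less, and Efnb2, whose region is shared with 4921522P10Rik, had 254, 269 and 266 against 180.0, 204 and 211 CPM in tChIP-Seq (0.42 ± 0.06, adjusted p = 1.31e-09) and 241, 243 and 245 against 249, 252 and 249.7 CPM in single ChIP-Seq. The Efnb2 groups were separate in tChIP-Seq with the Camk2a line above, and separate in single ChIP-Seq with the Camk2a line slightly below (-0.05 ± 0.04, adjusted p = 0.473). Efnb1 (0.16 ± 0.10) and Efnb3 (-0.07 ± 0.11) were not called.

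Of the 7 netrin regions, 3 were higher and 2 lower. Ntn5, a poorly studied member, had 19.7, 22.0 and 19.9 CPM in Camk2a H2B-FLAG tChIP-Seq against 10.4, 6.56 and 10.5 CPM in Rosa H2B-FLAG (1.16 ± 0.22, adjusted p = 7.25e-06). Its single ChIP-Seq libraries were low in both lines, with 6.40, 7.87 and 9.47 against 7.24, 5.03 and 7.20 CPM. Only the Camk2a tChIP-Seq libraries of Ntn5 stood apart, the other 9 being at 10.5 CPM or less. The single ChIP-Seq groups overlapped, with a difference in the same direction that did not pass (0.31 ± 0.20, adjusted p = 0.363). Ntn1, the classical attractant, fell by 0.62 ± 0.09 and Ntn4, a basement membrane netrin, by 0.27 ± 0.09, whereas the region shared by Ntn3 and Tbc1d24 rose (0.33 ± 0.07). Netrin-G1 and netrin-G2 are lipid-anchored and bind partners other than Dcc. The upstream region of Ntng1 rose (0.40 ± 0.09), and Ntng2 had 182, 198 and 194 against 165, 175 and 190.3 CPM in tChIP-Seq and 154, 145 and 143 against 154, 155 and 157 CPM in single ChIP-Seq. The Ntng2 groups overlapped in tChIP-Seq, and the difference of 0.12 did not pass (adjusted p = 0.104). In single ChIP-Seq its Camk2a libraries were just below the Rosa libraries, also without a call (-0.08 ± 0.04, adjusted p = 0.276).

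On the receptor side, all 9 EphA regions passed the test, 7 of them higher and 2 lower. Epha6 had 140.1, 155 and 158 CPM in Camk2a H2B-FLAG tChIP-Seq against 65.7, 58.4 and 42.0 CPM in Rosa H2B-FLAG (1.43 ± 0.09, adjusted p = 9.34e-24). In single ChIP-Seq it had 105, 93.5 and 97.2 against 86.3, 82.2 and 89.5 CPM. The Camk2a line was higher with both methods without overlap, but the single ChIP-Seq difference of 0.20 did not pass (adjusted p = 0.0142). Epha10, which lacks kinase activity, had 104, 112 and 106 against 38.6, 37.0 and 45.9 CPM in tChIP-Seq (1.42 ± 0.10, adjusted p = 3.55e-21) and 67.2, 60.8 and 61.6 against 63.9, 65.7 and 62.0 CPM in single ChIP-Seq. Its lines were apart in tChIP-Seq and overlapped in single ChIP-Seq. Epha5 had 149, 158 and 150.3 against 93.4, 90.7 and 97.8 CPM in tChIP-Seq (0.71 ± 0.07, adjusted p = 2.40e-13) and 157, 154 and 159.5 against 139, 144 and 126 CPM in single ChIP-Seq (0.19 ± 0.04, adjusted p = 0.00284). Epha5 was therefore higher in the Camk2a line with both methods, although its single ChIP-Seq call was lost with DESeq2 (adjusted p = 0.0600), without any 1 of the Camk2a libraries and without replicate 3 of the Rosa line. Epha4, a receptor for both ephrin classes, had 233, 253 and 253 against 171, 188 and 179 CPM in tChIP-Seq (0.46 ± 0.06, adjusted p = 1.34e-10) and 234, 229 and 236 against 226, 231 and 232 CPM in single ChIP-Seq. Here the low libraries were those of Rosa tChIP-Seq, and the other 9 libraries of Epha4 lay between 226 and 253 CPM. Epha8 (0.73 ± 0.13), Epha3 (0.57 ± 0.12) and Epha7 (0.47 ± 0.06) also rose.

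Epha1 and Epha2, the EphA members best known from epithelia, fell. Epha1 had 8.20, 6.50 and 11.4 CPM in Camk2a H2B-FLAG tChIP-Seq against 25.6, 22.7 and 16.4 CPM in Rosa H2B-FLAG (-1.32 ± 0.22, adjusted p = 3.70e-07). Its single ChIP-Seq levels were 6.65, 7.64 and 9.47 CPM in the Camk2a line and 8.26, 6.94 and 6.38 CPM in the Rosa line. Only the Rosa tChIP-Seq libraries of Epha1 were higher than the rest, while the Camk2a tChIP-Seq libraries overlapped those of single ChIP-Seq. Epha2 had 26.2, 24.5 and 26.2 against 62.6, 61.4 and 66.9 CPM in tChIP-Seq (-1.30 ± 0.12, adjusted p = 2.75e-15) and 37.9, 42.7 and 40.6 against 41.7, 40.7 and 42.2 CPM in single ChIP-Seq. The tChIP-Seq groups of Epha2 lay on either side of the single ChIP-Seq libraries, which overlapped between the lines.

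Among the 5 EphB regions, 3 rose and 1 fell. Ephb2 had 173, 178 and 175 CPM in Camk2a H2B-FLAG tChIP-Seq against 104, 101 and 89.9 CPM in Rosa H2B-FLAG (0.83 ± 0.07, adjusted p = 3.35e-17), and 111, 107 and 105 against 120.4, 104 and 116 CPM in single ChIP-Seq. Ephb2, which acts at excitatory synapses, was highest in all 3 Camk2a tChIP-Seq libraries, while its single ChIP-Seq groups overlapped. Ephb6, another kinase-dead receptor (0.63 ± 0.08), and Ephb3 (0.57 ± 0.08) rose as well, and Ephb1 did not pass (0.22 ± 0.08, adjusted p = 0.012). Ephb4, the receptor of venous endothelium, had 24.6, 17.3 and 17.3 against 74.1, 68.6 and 74.8 CPM in tChIP-Seq. Its single ChIP-Seq libraries had 29.8, 33.2 and 33.9 CPM in the Camk2a line and 28.8, 36.3 and 32.1 CPM in the Rosa line. The Rosa tChIP-Seq libraries of Ephb4 were above, and the Camk2a ones below, all 6 single ChIP-Seq libraries, and the difference was 3.62-fold (-1.86 ± 0.13, adjusted p = 1.35e-21). Summed endothelial marker signal had the same order of groups, with 343 CPM or more in Rosa tChIP-Seq and 108 CPM or less in Camk2a tChIP-Seq, and its part in the values of Ephb4 was not tested.

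Of the 10 regions of plexins, the semaphorin receptors, 4 rose and 3 fell. Among the plexin-A and plexin-C regions, Plxnc1 (0.65 ± 0.07), the receptor of Sema7a, Plxna4 (0.53 ± 0.07), Plxna2 and Plxna1 (0.23 ± 0.06) rose. Plxna2, a receptor for class 3 and class 6 semaphorins, had 221, 239.6 and 238 CPM in Camk2a H2B-FLAG tChIP-Seq against 199, 199 and 187 CPM in Rosa H2B-FLAG (0.26 ± 0.06, adjusted p = 1.30e-04) and 209, 230.0 and 229 against 229, 237 and 239.8 CPM in single ChIP-Seq. For Plxna2 the tChIP-Seq groups were close but separate, and the single ChIP-Seq groups overlapped. Plxna3 (0.31 ± 0.16) and Plxnd1 (-0.00 ± 0.07) were not called. Of the plexin-B regions, 3 of 4 fell. Plxnb1 had 45.6, 40.1 and 54.1 against 77.7, 86.5 and 83.3 CPM in tChIP-Seq (-0.82 ± 0.10, adjusted p = 2.43e-10) and 60.3, 63.7 and 62.3 against 59.7, 62.7 and 61.0 CPM in single ChIP-Seq. Its tChIP-Seq groups again lay on either side of the single ChIP-Seq libraries. The upstream region of Plxnb2 fell by 0.29 ± 0.09, and its downstream region was not called (-0.28 ± 0.12, adjusted p = 0.0494). Plxnb3, which is known from oligodendrocytes, was covered by 37 counts or fewer in every library, with 1.31, 1.44 and 0.368 against 4.17, 5.37 and 3.94 CPM in tChIP-Seq and 5.91, 5.25 and 4.24 against 5.36, 4.43 and 5.56 CPM in single ChIP-Seq. The 3 Camk2a tChIP-Seq libraries, which held 4, 4 and 1 counts, were below all others (-2.03 ± 0.53, adjusted p = 0.00102). This call was lost with DESeq2 (adjusted p = 0.0118) and without replicate 3 of the Camk2a line (log2 fold change -1.67, adjusted p = 0.0106). Summed oligodendrocyte marker signal was 398 to 427 CPM in Rosa tChIP-Seq and 240 to 252 CPM in Camk2a tChIP-Seq. That sum includes 1 region of Mbp that was called higher, with means of 50.8 CPM in Rosa and 115 CPM in Camk2a tChIP-Seq. The other region of Mbp fell, from 45.6 to 17.7 CPM. The part of oligodendrocyte signal in the values of Plxnb3 was not tested.

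Neither neuropilin passed the test. Nrp2, the co-receptor for Sema3f, had 171, 154 and 166 CPM in tChIP-Seq of the Camk2a line, against 169, 169 and 179.8 CPM in that of the Rosa line (-0.06 ± 0.06, adjusted p = 0.448). In single ChIP-Seq it had 154, 149.6 and 147 CPM in the Camk2a line and 136, 138 and 138 CPM in the Rosa line. The tChIP-Seq libraries overlapped, and in single ChIP-Seq the Camk2a libraries were slightly higher without a call (0.13 ± 0.04, adjusted p = 0.0618). Nrp1, the co-receptor for Sema3a, had a difference of 0.07 ± 0.07 in tChIP-Seq (adjusted p = 0.41). While Sema3a and Sema3f rose, neither co-receptor passed the test.

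Of the 3 Slit receptor regions in the rule, 2 rose. Robo4 is outside the rule and was counted among the endothelial markers, where it fell (-3.09 ± 0.27). Robo3, a divergent receptor known for its role in midline crossing, had 48.9, 48.0 and 43.5 CPM in Camk2a H2B-FLAG tChIP-Seq against 15.1, 18.5 and 21.0 CPM in Rosa H2B-FLAG (1.39 ± 0.15, adjusted p = 1.22e-12), and 17.0, 16.9 and 19.7 against 17.4, 16.9 and 14.7 CPM in single ChIP-Seq. Only the Camk2a tChIP-Seq libraries of Robo3 stood apart, and the other 9 ranged from 14.7 to 21.0 CPM. Robo1 rose (0.52 ± 0.10), and Robo2 had 125, 121 and 113 against 96.5, 101 and 111 CPM in tChIP-Seq and 106, 101 and 92.5 against 94.1, 89.9 and 88.3 CPM in single ChIP-Seq. The tChIP-Seq groups of Robo2 were narrowly separate, and its difference just missed the threshold (0.24 ± 0.08, adjusted p = 0.0106).

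Among the netrin receptors, Dcc had 121, 107 and 112 CPM in Camk2a H2B-FLAG tChIP-Seq against 71.0, 70.4 and 66.9 CPM in Rosa H2B-FLAG (0.71 ± 0.09, adjusted p = 3.97e-11). Its single ChIP-Seq libraries had 88.4, 99.7 and 102 CPM in the Camk2a line and 95.3, 101 and 91.8 CPM in the Rosa line. The tChIP-Seq groups were apart, and the single ChIP-Seq groups overlapped almost fully. Unc5a (1.05 ± 0.08, adjusted p = 4.71e-21) and Unc5d (1.02 ± 0.09, adjusted p = 2.62e-17) rose as well, and Unc5c had 174, 165 and 167 against 122, 119 and 127 CPM in tChIP-Seq (0.47 ± 0.07, adjusted p = 8.62e-09) and 154, 161 and 154 against 165, 166 and 166 CPM in single ChIP-Seq. Unc5c was separate in both, with the Camk2a line above in tChIP-Seq and slightly below in single ChIP-Seq (-0.09 ± 0.04, adjusted p = 0.191). Unc5b, the vascular member, had 37.7, 47.3 and 44.9 against 80.9, 74.0 and 78.7 CPM in tChIP-Seq (-0.85 ± 0.11, adjusted p = 1.13e-10) and 54.2, 60.6 and 64.3 against 61.4, 64.7 and 62.0 CPM in single ChIP-Seq. It was the only Unc5 region called lower, and its lines overlapped in single ChIP-Seq. Unc50 was not called (-0.06 ± 0.09, adjusted p = 0.616).

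In single ChIP-Seq, which reads all cells, the families differed little between the lines. Slit2 and Epha5 were called higher and Sema4c lower, 2 and 1 of 74 regions (2.70% and 1.35%), against 0.928% and 1.22% of all regions. The 3 called in either direction were 4.05% of the members, against 2.15% of all regions. The members ranged from -0.23 to 0.38, and 65 of them lay within 0.2 of 0 on the log2 scale, around a median of -0.00. The test of the interaction of line and method, over all 12 libraries, called 45 regions (60.8%), against 26.9% of all. The line difference in tChIP-Seq exceeded that of single ChIP-Seq at 34 of them and was below it at 11. These were 45.9% and 14.9% of the members, against 13.7% and 13.2% of all regions. Of the 53 regions called between the lines in tChIP-Seq, 43 were also called in the interaction in the same direction. The tChIP-Seq difference is a part of the interaction term, so this overlap is only a description. The matching share over all regions is not given here.

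Within a line, tChIP-Seq and single ChIP-Seq differ in the selected cells but also in the additional precipitation and in depth, and part of the tagged H2B carries an extended N-terminus, so cell selection and method cannot be told apart in this comparison. In the Rosa H2B-FLAG line the tag is ubiquitous. There tChIP-Seq gave a higher level than single ChIP-Seq at 23 regions and a lower level at 24. These were 31.1% and 32.4% of the members, against 24.7% and 22.5% of all regions. The 47 called were 63.5% of the members, against 47.2% of all regions. The split of higher and lower calls was 26 to 18 with library totals in place of TMM (59.1% of the called members higher, against 67.7% of all called regions). It was 23 to 15 among the 63 members left without the 40% of regions with the lowest counts (60.5% against 51.4%). In the Camk2a H2B-FLAG line 39 were higher and 9 lower (52.7% and 12.2% of the members), against 25.3% and 22.6% of all regions. The 48 called were 64.9% of the members, against 47.9% of all regions. All 3 tChIP-Seq libraries of that line lay above its single ChIP-Seq libraries at 45 regions and below at 10. These were 60.8% and 13.5% of the members, against 31.1% and 30.6% of all regions. The groups behind these comparisons are also those of the line comparisons, so the values are not independent of them. In opposite directions, 14 regions were called lower in the Rosa line and higher in the Camk2a line, which is 18.9% of the members and 4.74% of all regions. They were Slit1, the upstream region of Slit3, Sema4d, Sema4f, Efna3, Efna5, Epha6, Epha10, Ephb3, Plxna4, Plxnc1, Unc5a, Unc5d and Dcc. Slit1 had the lowest value of them in the Rosa line, with -0.95 there (adjusted p = 8.99e-14) and 0.72 in the Camk2a line (adjusted p = 1.60e-15). Another 4 regions were called higher in the Rosa line and lower in the Camk2a line, 5.41% of the members and 3.69% of all regions, and these were Ephb4, Epha2, Unc5b and Plxnb1. For Ephb4 the values were 1.16 (adjusted p = 9.93e-29) and -0.70 (adjusted p = 2.15e-06). Of the 7 netrin regions, 6 were called higher in tChIP-Seq in each (5 of them in both), and Ntn1 had 1.03 in the Rosa and 0.50 in the Camk2a line. Sema7a and Efnb3 were lower in tChIP-Seq in both.

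**Figure D3:**
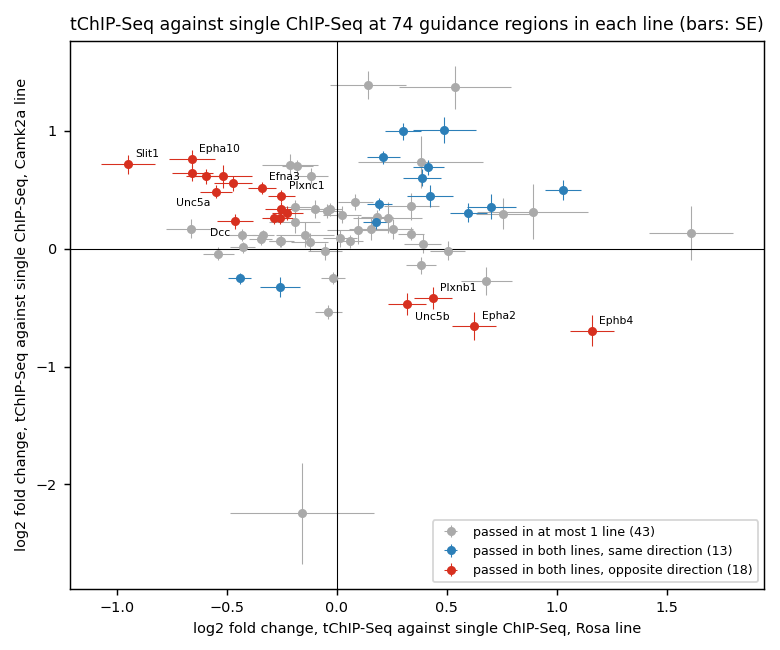
Log2 fold change of tChIP-Seq against single ChIP-Seq at the 74 regions in the Rosa H2B-FLAG line (horizontal axis) and in the Camk2a H2B-FLAG line (vertical axis), with SE bars. The 18 red points passed in both lines with opposite direction, 14 at the upper left, from Slit1 at -0.95 and 0.72, and 4 at the lower right, with Ephb4 at 1.16 and -0.70.

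Genes with 2 regions allowed a comparison within a gene, by the share of the upstream region in the counts of both. At Sema6d, a transmembrane semaphorin whose regions start 519405 bp apart, this share was 46.9, 46.8 and 48.3% in the 3 Camk2a H2B-FLAG tChIP-Seq libraries and 35.7, 32.1 and 30.1% in Rosa H2B-FLAG. In single ChIP-Seq it was 34.0, 34.5 and 32.3% in the Camk2a line and 32.1, 30.7 and 33.4% in the Rosa line. Only the Camk2a tChIP-Seq libraries stood apart, by 14.6 percentage points from Rosa tChIP-Seq (two-sided exact permutation p = 0.10, which is the smallest that 3 against 3 libraries allow). Both regions were called between the lines, the upstream one higher (0.32 ± 0.09, adjusted p = 0.00299) and the downstream one lower (-0.55 ± 0.07, adjusted p = 1.45e-09). The shares of Ntng1 (mean 92.0% against 88.4% in tChIP-Seq), Slit3 (91.3% against 87.5%), Sema4b (28.9% against 23.3%) and Plxnb2 (61.3% against 61.5%) differed by 5.59 percentage points or less between the lines, with exact permutation p values of 0.30, 0.20, 0.40 and 1.00. In single ChIP-Seq the share of Sema4b was 26.1, 28.3 and 28.6% in the Camk2a line and 22.7, 23.1 and 22.6% in the Rosa line, and that of Ntng1 90.3, 90.5 and 90.6% against 91.3, 92.1 and 91.7%. Neither pair of groups overlapped, and the means of the lines differed by 4.86 and -1.21 percentage points (two-sided exact permutation p = 0.10 for each, the same smallest value as for Sema6d in tChIP-Seq). Across these 5 genes no p could pass an adjustment at this number of libraries.

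**Figure D4:**
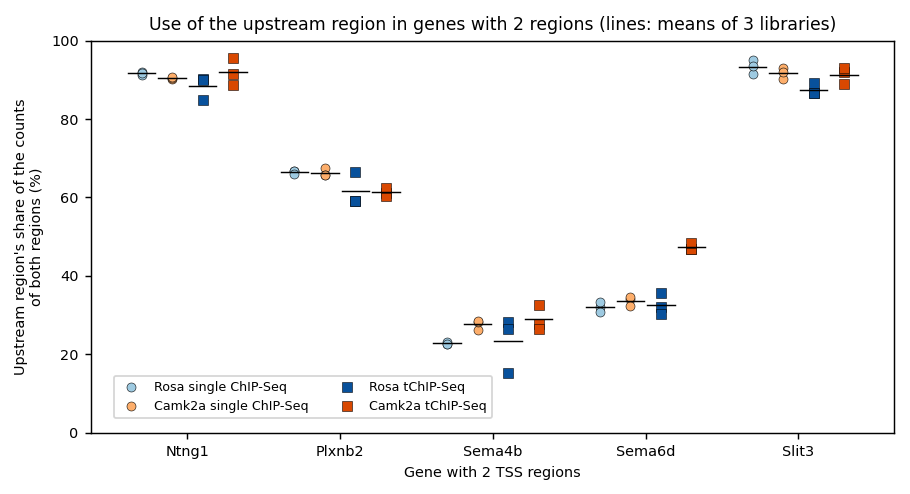
Share of the upstream region in the summed counts of both regions, in percent, for the 5 genes with 2 regions, in each library (circles for single ChIP-Seq, squares for tChIP-Seq) with group means as lines. At Sema6d the 3 Camk2a H2B-FLAG tChIP-Seq libraries lie between 46.8% and 48.3%, while the other 9 lie between 30.1% and 35.7%.

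The guidance regions were wide, with a median of 3198.5 bp and quartiles of 2282.5 and 4419.8 bp, where all regions at a protein-coding TSS had a median of 2083 bp. Their median GC content was 57.0% against 54.2%, and both sets had about the same number of CG dinucleotides per kb (43.5 and 43.6). Width went with the line difference over all protein-coding TSS regions (Spearman's rho 0.27 across 12985 regions), and less so among the members (0.13 across 74 regions). These regions share libraries and are not independent, and the correlations are descriptions. Of regions at least as wide as the median member, 23 of 37 members were higher and 4 lower (62.2% and 10.8%), where 44.5% and 14.9% of all such protein-coding TSS regions were. Of narrower ones, 15 of 37 members were higher and 11 lower (40.5% and 29.7%), against 12.8% and 15.3%. The share of higher calls was thus above the background in both width classes, and that of lower calls only among narrow regions. Width was not matched within a class, and the protein-coding median of 2083 bp is below the members' lower quartile of 2282.5 bp. Members also held more counts, with a median of 3855 over the 12 libraries against 3025, and counts were not matched either. Epha1, Plxnb3, Efna4 and Sema4g were among the narrow regions that fell.

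**Figure D5:**
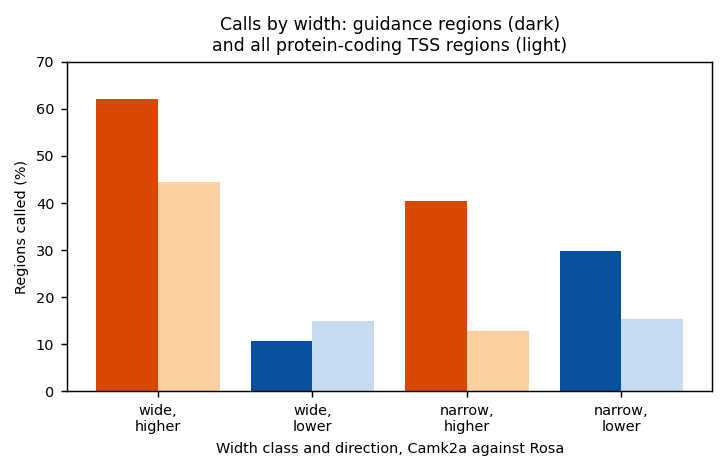
Percent of regions called higher (orange) or lower (blue) in Camk2a H2B-FLAG against Rosa H2B-FLAG tChIP-Seq, for the guidance regions (dark bars, 37 in each class) and all protein-coding TSS regions (light bars), split at the median member width of 3198.5 bp. The dark bars are at 62.2% and 40.5% for higher calls against 44.5% and 12.8% for the light bars.

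Other genes of the pathway were read in the same fit. Of 24 regions of 21 further cues, receptors and adhesion partners, 13 were higher and 2 lower in Camk2a H2B-FLAG tChIP-Seq (54.2% and 8.33%, against 17.0% and 14.6% of all regions), with a median of 0.42. Those that rose included Dscam, a netrin co-receptor (1.20 ± 0.09), the cell adhesion molecules L1cam (1.08 ± 0.15) and Chl1 (0.92 ± 0.10), Flrt3 (0.78 ± 0.09) and both regions of Lrrc4c, the netrin-G1 ligand (0.74 ± 0.10 and 0.90 ± 0.07). The chemokine receptor Cxcr4 fell by 0.83 ± 0.12, as did 1 of the 2 regions of Rgma, a ligand of neogenin, by 0.52 ± 0.09. Of 67 regions of 50 cytoplasmic effectors, 25 were higher and 12 lower (37.3% and 17.9%, against 17.0% and 14.6% of all regions), with a median of 0.09. Crmp1 (0.97 ± 0.06) and Dpysl4 (0.99 ± 0.11), collapsin response mediators of semaphorin signalling, rose, as did Chn1 (0.88 ± 0.07), the Rac regulator downstream of Epha4, at 1 of its 2 regions. Regions that fell included 1 of the 2 regions of Abl1 (-2.77 ± 0.15) and Fes (-2.68 ± 0.27). Several regions of Rgs3 fell (-2.77 ± 0.31, -1.81 ± 0.27, -0.71 ± 0.19 and -0.66 ± 0.19), and each counts among the lower calls of the effectors. A further Rgs3 region was not called (0.31 ± 0.12, adjusted p = 0.0330). Dock1 (-1.51 ± 0.11) and Mical1 (-0.92 ± 0.11) fell as well. Dpysl2 (0.09 ± 0.07) and the general GTPases Rac1 (-0.06 ± 0.07), Cdc42 (0.07 ± 0.08) and Rhoa (0.01 ± 0.07) were not called.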

How the data were processed

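H3K4me3 ChIP-Seq and tChIP-Seq counts of 12 cortex libraries were used, and the input and FLAG-only libraries were not analysed here. The authors removed reads matching repeats (Bowtie2 2.1.0), mapped the rest to mm9 (Bowtie 1.0.0), removed duplicates (SAMtools 0.1.19 per the labels), called peaks with MACS and deposited raw read counts per region (bedtools 2.17.0) for 17993 regions. How the common region list was merged was not given in the sources used here. Regions were matched to GENCODE M1 starts, and coordinates are 1-based. Counts were fitted with the quasi-likelihood test of edgeR 4.0.16 (R 4.3.3, TMM, no filter), with the 6 libraries of each comparison, or all 12 for the interaction of line and method, and regions were called at an adjusted p under 0.01. The fit was tested on simulated data. SE is the log2 fold change divided by the root of F. CPM values use TMM over 12 libraries. DESeq2 1.42.0, library totals, filters, thresholds, a replicate block and left-out libraries were alternatives. Exact permutation tests used scipy 1.17.1, and plots matplotlib 3.10.9.

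Members and gene lists were chosen with earlier results of these data known. Values in every library are given for the 8 called members with the highest and the 8 with the lowest log2 fold change between the lines in tChIP-Seq, the member with the highest mean CPM in each family, and members called in single ChIP-Seq, 30 regions in all. Totals per library ranged from 1457261 to 8644574 counts, and 73 of the 74 members had at least 10 counts in every library, as did 15173 of all regions.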

Additional observations from a re-analysis of the deposited data

Results flagged for a closer look

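At 25 of the 30 regions described by library, against 26.9% of all regions, the difference between the lines depended on the method, by the interaction of line and method (edgeR, adjusted p under 0.01 over all regions, 3 libraries in each of 4 groups). Of these 30, 16 were chosen as the extremes of the line difference in tChIP-Seq, which is a part of the interaction term, so the count is a result of that choice and is given as a description. The values below are log2 interaction terms, the line difference in tChIP-Seq minus that in single ChIP-Seq. Among the ligands, the Slits had positive terms, 1.67 for Slit1, 1.30 for the upstream region of Slit3 and 0.58 for Slit2. Semaphorins were mixed, with 1.14 for Sema4f, 0.93 for Sema4a, 0.33 for Sema4c and -0.95 for Sema4g. For the ephrins the terms were 0.55 for Efna5, 0.46 for Efnb2 and -0.51 for Efna1.

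Among the receptors, positive terms were found for Epha10 (1.43), Robo3 (1.26), Epha6 (1.22), Ephb2 (0.89), Dcc (0.70), Unc5c (0.55), Epha5 (0.51), Epha4 (0.44) and Plxna2 (0.33). Negative terms were found for Plxnb3 (-2.08), Ephb4 (-1.85), Epha1 (-1.47), Epha2 (-1.27), Plxnb1 (-0.84) and Unc5b (-0.78). The term of Ntn5 did not pass (0.85 ± 0.31, adjusted p = 0.0201). Nor did those of Sema7a (0.20), Ntng2 (0.19), Robo2 (0.09) and Nrp2 (-0.20). Slit2 and Epha5 were called in both methods in the same direction, so their terms describe a larger difference in tChIP-Seq, whereas Sema4c was called in single ChIP-Seq only. The term of Plxnb3 lost its call when the tChIP-Seq replicate 3 of the Camk2a line was left out (-1.71, adjusted p = 0.0157) and when replicate 2 of the Rosa line was (-1.94, adjusted p = 0.0108).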

How the results depend on the processing

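No value of the regions described by library changed direction under the alternatives run. Between the lines in tChIP-Seq, 35 to 37 regions were higher and 11 to 14 lower when any 1 library was left out, and the interaction called 31 to 35 and 10 to 13. For tChIP-Seq against single ChIP-Seq, leaving out a library gave 36 to 38 higher and 8 to 9 lower in the Camk2a line, and 18 to 24 higher and 20 to 24 lower in the Rosa line, where 15 were lower without the 40% of regions with the lowest counts. The single ChIP-Seq calls were the least stable. Of 2 higher regions, 1 was left with DESeq2 and at an adjusted p under 0.001, and 1 to 2 without any 1 library. The 1 lower region became 6 at an adjusted p under 0.05 and 0 to 2 without any 1 library. It became 0 with DESeq2, library totals or the 40% filter (each 6 members at an unadjusted p under 0.05), at an adjusted p under 0.001 (11) and without regions shared with another gene (9). The causes were not tested.

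The labels give single ChIP-Seq and tChIP-Seq libraries of a line the same numbers, and whether a number marks a shared lysate was not given. Same-numbered libraries of a line showed little correlation of their deviations between the methods (0.00186 to 0.0547). Between the lines, same-numbered libraries of a method gave -0.0127 to 0.0205. With the replicate number as a block, 38 regions were higher and 13 lower between the lines in tChIP-Seq, and 2 were higher and 2 lower in single ChIP-Seq. With this block the interaction called 35 and 11, and tChIP-Seq against single ChIP-Seq 23 and 24 in the Rosa line and 39 and 9 in the Camk2a line. Among single values of the regions described by library, 1052 kept their side of the threshold, 13 passed it and 20 lost it.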
